A study of Mus musculus with 10 samples.

Results

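Ribosome footprints of Dicer knockout mouse embryonic stem cells were compared, gene by gene, with those of cells labelled as lacking both Ago1 and Ago2. The 4 libraries of this comparison, 2 per genotype, are those the labels name Dicer knockout and Ago1 and Ago2 knockout, of 10 in the study, which also holds 2 libraries each of WT, Drosha knockout and Dgcr8 knockout cells. Of 11011 genes in the table of counts, 10978 had enough reads to be tested. All cells were of the E14 line, derived from a blastocyst of 129/Ola background, grown on gelatine in serum and LIF. They were held for 2 min in cycloheximide at 0.1 mg/mL, which stops elongating ribosomes, before RNase I trimmed the mRNA that ribosomes did not cover. The Dicer knockout carries the loss of Dicer, the Ago knockout, by its label, the loss of both Argonautes, and WT cells neither. The labels do not say which exons were deleted, or whether the 2 libraries of a genotype came from separate clones or cultures, so the p-values below measure the spread between these libraries, which may be technical.

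Dicer is the nuclease that cuts hairpin precursors into microRNAs (miRNAs), and Argonaute proteins hold the cut miRNA and use it to find mRNAs, which are then repressed. Loss of either ends most repression by miRNAs, but the lesions are not the same. Dicer also cuts long double-stranded RNA, and a cell without Dicer still has Argonautes, whereas a cell without Ago1 and Ago2 still makes precursors and has other Argonautes. In mouse embryonic stem cells the dominant miRNAs are the miR-290 and miR-302 families. Without matched mRNA libraries, a difference in footprints holds both mRNA amount and ribosome occupancy, and in a bulk sample fewer cells of a type and less RNA per cell cannot be told apart.

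The Dicer libraries held 5432599 and 1754710 counts, the Ago libraries 14064896 and 35168638, and the WT libraries 11082243 and 23731070. Levels are given as CPM, each gene's counts scaled to a common library total with TMM, always with replicate 1 before replicate 2. At 3 counts, and before TMM scaling, the smallest level told from 0 was 0.552 and 1.71 CPM in the Dicer libraries and 0.213 and 0.0853 CPM in the Ago libraries. The libraries did not separate cleanly by genotype. On log2 CPM over all genes, the first Ago library correlated with the second at r = 0.928 and with the first Dicer library at r = 0.931, while the Dicer libraries correlated with each other at r = 0.952 (Pearson, across genes, which are not independent). One gene, Creb5, a transcription factor of the CREB family, took 3.94% of all counts in the second Ago library, and its level was 4124 and 10050 CPM in the Dicer libraries, against 4142 and 41090 CPM in the Ago libraries (adjusted p = 0.473 in edgeR), so the groups overlapped.

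Footprints on the targeted genes were examined first. Dicer1 (ENSMUSG00000041415, chromosome 12 from 104687742 to 104751952 in GRCm38) had 15.8 and 22.1 CPM in the Dicer libraries, against 129 and 144 CPM in the Ago libraries, and 122 and 124 CPM in WT. Both Dicer libraries were low and both Ago libraries were at the WT level (log2 fold change -2.88, SE 0.39, adjusted p = 0.0116; edgeR quasi-likelihood test with Benjamini-Hochberg adjustment over all genes), and the call was lost on leaving out either Dicer library (adjusted p = 0.24 and 0.060) or Ago replicate 2 (0.077). Ago2 (ENSMUSG00000036698, chromosome 15 from 73095844 to 73184935) had 135 and 135 CPM in the Dicer libraries, against 14.9 and 6.61 CPM in the Ago libraries, and 81.9 and 81.9 CPM in WT (log2 fold change 3.66, SE 0.39, adjusted p = 0.00224). Footprints on Ago2 were low in both Ago libraries and above WT in both Dicer libraries. Ago1, unlike Ago2, was not below WT in both Ago libraries. It had 80.5 and 64.5 CPM in the Dicer libraries, against 27.0 and 10.7 CPM in the Ago libraries, and 14.7 and 14.3 CPM in WT, so that the Ago libraries lay on both sides of WT while both Dicer libraries lay above all 4 (log2 1.96 for Dicer over Ago, adjusted p = 0.0621, not past 0.05). Counts per gene do not show whether footprints fell on a deleted exon, and the Ago libraries are called by their label below. Drosha had 229 and 215 CPM in the Dicer libraries, against 255 and 313 CPM in the Ago libraries (adjusted p = 0.701). Dgcr8 had 64.5 and 76.1 CPM in the Dicer libraries, against 74.6 and 63.5 CPM in the Ago libraries (adjusted p = 0.986), and the Dicer and Ago libraries overlapped. In the libraries labelled Dgcr8 knockout, which enter the fit through the shared spread, Dgcr8 had 144.8 and 145.6 CPM, above the 32.7 and 33.1 CPM of WT. The Drosha libraries were above WT too, at 169.3 and 197.5 CPM. Counts per gene thus neither show nor exclude the loss of Dgcr8 that the label gives. On log2 CPM over all genes, the first library labelled Dgcr8 knockout correlated with the WT libraries at r = 0.9585 and 0.9469. With the second library of that label it correlated at r = 0.9277. The other Argonaute tested, Ago3, and the 3 Tnrc6 scaffold genes, whose proteins tie Argonaute to the deadenylation enzymes, had 0 calls among 4 (adjusted p from 0.624 to 0.998). Over all genes 0.547% were called, so 4 genes would mostly give none.

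**Figure D1:**
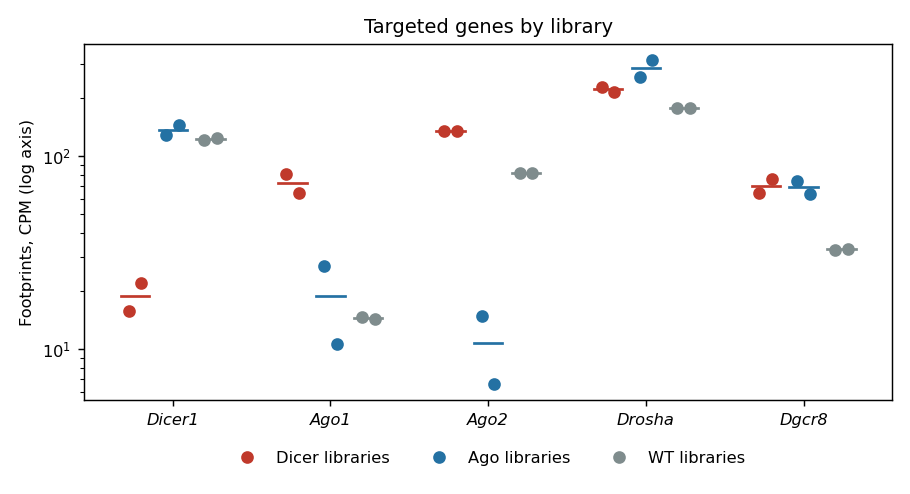
Footprints on the 5 targeted genes in CPM on a log axis, 1 point per library, with a bar at the mean of each pair, for Dicer (red), Ago (blue) and WT (grey) libraries. Dicer1 is low in the Dicer libraries, Ago2 is low in the Ago libraries, and Ago1 in the Ago libraries, at 27.0 and 10.7 CPM, lies around its WT level.

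Over all genes, 60 of 10978 (0.547%) passed an adjusted p of 0.05 between Dicer and Ago in edgeR. Of these, 36 (0.328%) were higher and 24 (0.219%) lower in the Dicer libraries, with absolute log2 fold changes from 1.49 to 7.75 and a median of 2.71. For all 60 the Dicer and Ago libraries did not overlap, a pattern that 21.6% of all genes showed with Dicer above and 21.1% with Dicer below. At an unadjusted p under 0.05 there were 688 higher genes (6.27%) and 657 lower genes (5.98%). Read against the WT libraries in the same fit, the Dicer libraries gave 1220 calls (11.1%) and the Ago libraries 316 (2.88%), and these 2 contrasts share their WT libraries. The gap depended on the test, since limma-voom gave 1045 and 942. The count of 60 rested on single libraries. It was 4 without the first Dicer library, 14 without the second, 157 without the first Ago library and 4 without the second, and 25 and 15 without the first and second WT library, which enter through the shared estimate of spread. It was 91 without both libraries labelled Dgcr8 knockout. Of the called genes named below, Krt8, Krt18, Krt19, Anxa2, Anxa3, Parva, Gsn, Erap1, Ago2, Dicer1, Ctcfl, Sema5b, Emp3 and Tro stayed called without either WT library. Fbln2, Padi2 and Kit were lost without the second WT library alone, at 0.057 to 0.059, and the others without either, at 0.050 to 0.085. Where 1 library of a genotype was left out, the remaining one was taken to vary like the other groups. Every one of the 60 kept its direction in each of these fits. The lower calls held less well under limma-voom, which kept 35 of the 36 higher calls and 6 of the 24 lower ones, whereas DESeq2 kept all 60. The Dicer and Ago libraries alone kept 12 higher and 6 lower calls. Anxa3, Parva and Ago2 remained called without any one library, and Krt8 without any but the second Ago library (adjusted p = 0.071).

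**Figure D2:**
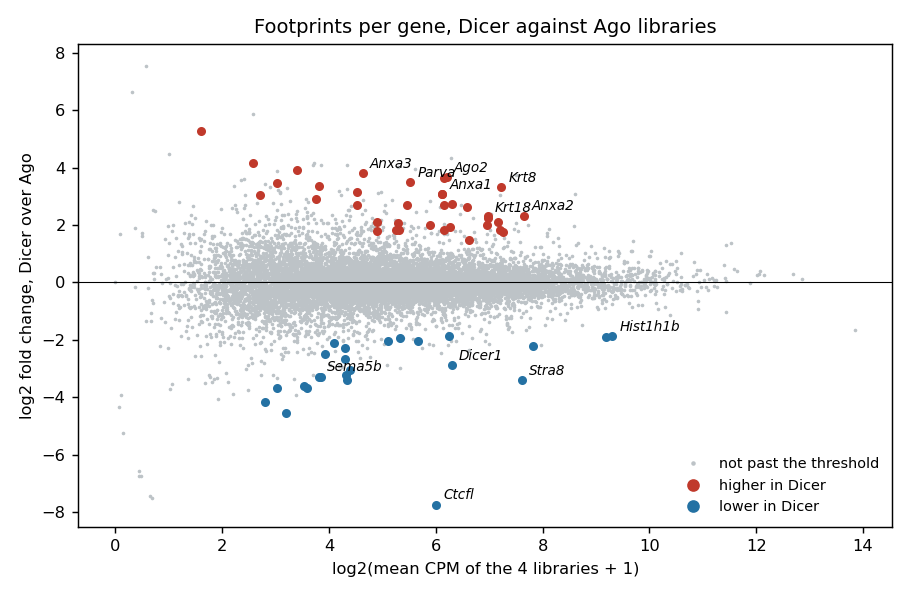
Each point is 1 of 10978 genes, with log2 of the mean CPM of the 4 libraries plus 1 on the horizontal axis and the log2 fold change of Dicer over Ago on the vertical axis. Red points are the 36 genes higher and blue points the 24 genes lower in the Dicer libraries, with Ctcfl the lowest at -7.75.

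Keratins of simple epithelia were higher in the Dicer libraries. Krt8, the type II keratin that simple epithelia and the trophectoderm of the blastocyst make first, had 332 and 207 CPM in the Dicer libraries, against 29.6 and 24.8 CPM in the Ago libraries, and 26.8 and 36.5 CPM in WT (log2 fold change 3.31, SE 0.35, adjusted p = 0.00224). The Ago libraries lay at the WT level and both Dicer libraries far above. Krt18, its type I filament partner, had 247 and 165 CPM in the Dicer libraries, against 48.1 and 38.9 CPM in the Ago libraries, and 50.3 and 49.8 CPM in WT (log2 fold change 2.25, SE 0.29, adjusted p = 0.00989). Krt19, another type I keratin, had 186 and 142 CPM in the Dicer libraries, against 27.0 and 26.5 CPM in the Ago libraries, and 24.2 and 46.3 CPM in WT (log2 fold change 2.62, SE 0.40, adjusted p = 0.0224). For both type I keratins the Dicer and Ago libraries stood apart in the same way as for Krt8. Among trophectoderm and simple keratin genes, 3 of 7 tested were called higher and 0 lower, where 0.328% of all genes were called higher. Of the 7, 5 (71.4%) were higher at an unadjusted p under 0.05, where 6.27% of all genes were. The median log2 fold change of the 7 was 2.19, against -0.03 over all genes, and stayed between 1.70 and 2.51 under every alternative fit. Krt7 had 33.8 and 19.3 CPM in the Dicer libraries, against 3.61 and 8.03 CPM in the Ago libraries (log2 2.19, adjusted p = 0.0851). Tfap2c, a transcription factor of early trophectoderm, had 59.1 and 83.8 CPM in the Dicer libraries, against 75.8 and 106.4 CPM in the Ago libraries, with the groups overlapping. The summed level of the 4 trophectoderm markers tested was 672 and 476 CPM in the Dicer libraries, against 157 and 178 CPM in the Ago libraries, and 125 and 136 CPM in WT. Of these 4 markers 3 are keratins, and Cdx2, Eomes, Gata3 and Elf5, which define that lineage, were not analysed here. The part of trophectoderm-like cells in the keratin values was not tested. Krt17, a keratin of basal and wounded epithelium, chosen here after its values were seen, had 242 and 221 CPM in the Dicer libraries, against 49.9 and 57.5 CPM in the Ago libraries, and only 9.87 and 8.17 CPM in WT (log2 fold change 2.11, SE 0.36, adjusted p = 0.0351), so both knockouts lay above WT and Dicer above Ago. Reads that match several keratins cannot be told apart in these counts. Without the first Dicer library the adjusted p was 0.17 for Krt18, 0.24 for Krt19 and 0.30 for Krt17, and without the second Ago library 0.078, 0.16 and 0.19. Krt19 was also lost without the second Dicer library (adjusted p = 0.057), as was Krt17 (0.12), and Krt17 was lost without the first Ago library (0.064). With the Dicer and Ago libraries alone Krt18 had an adjusted p of 0.0502.

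Krt8 and Krt18 are neighbours on chromosome 15, Krt8 from 101996698 to 102004482 on the minus strand and Krt18 from 102028180 to 102032027 on the plus strand, with 23697 bases between them. Since they moved together, their promoters, from 250 bases before to 50 after the start in RefSeq (GRCm38.p6), are shown 5′ to 3′, with capitals where a searched motif lies. The motifs were the TATA box TATAAA, the GC box GGGCGG and the AP-1 site TGANTCA, each on both strands.
Krt8, chr15:102004293-102004592, minus strand: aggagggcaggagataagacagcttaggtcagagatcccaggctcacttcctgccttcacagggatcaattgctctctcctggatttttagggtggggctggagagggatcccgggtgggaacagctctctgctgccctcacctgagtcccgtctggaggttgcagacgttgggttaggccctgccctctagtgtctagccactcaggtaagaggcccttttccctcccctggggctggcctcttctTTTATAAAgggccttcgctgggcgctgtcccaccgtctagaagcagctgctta
Krt18, chr15:102027966-102028265, plus strand: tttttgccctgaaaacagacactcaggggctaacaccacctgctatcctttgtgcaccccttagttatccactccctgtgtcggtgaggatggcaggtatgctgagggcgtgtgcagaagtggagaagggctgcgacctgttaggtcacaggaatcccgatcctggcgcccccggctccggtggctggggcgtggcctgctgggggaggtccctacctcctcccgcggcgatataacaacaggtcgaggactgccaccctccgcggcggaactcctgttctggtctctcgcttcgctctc
The Krt8 window held 2 overlapping TATA box matches, 1 on each strand, and the Krt18 window held 0 matches to these motifs. Of the 32851 promoters in the RefSeq table, 13.6% hold the TATA box, 35.7% the GC box and 7.81% the AP-1 site. The windows held 6 CG pairs for Krt8 and 17 for Krt18. A match or its lack in these windows says nothing of what binds there.

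Genes of epithelial junctions lay higher in the Dicer libraries as well, although few passed alone. Cldn7, a claudin of tight junctions, had 243 and 153 CPM in the Dicer libraries, against 62.0 and 37.5 CPM in the Ago libraries, and 42.6 and 66.5 CPM in WT (log2 fold change 2.00, SE 0.39, adjusted p = 0.0499), and it was the 1 call among 25 genes tested. It was not called without the first Dicer library (adjusted p = 0.40), the second (0.11) or the second Ago library (0.27), nor with the Dicer and Ago libraries alone (0.0891). At an unadjusted p under 0.05, 9 (36%) were higher and 0 lower, against 6.27% and 5.98% of all genes. Of the 25, 24 had a positive log2 fold change, and the median was 0.82. In 15 (60%) both Dicer libraries were above both Ago libraries, where 21.6% of all genes were. Grhl2, a transcription factor of epithelial identity, had 117 and 102 CPM in the Dicer libraries, against 46.5 and 18.8 CPM in the Ago libraries (log2 1.75, adjusted p = 0.098), and 16.2 and 12.3 CPM in WT. Dsp, the desmosomal plaque protein desmoplakin, had 528 and 299 CPM in the Dicer libraries, against 131 and 118 CPM in the Ago libraries (log2 1.74, adjusted p = 0.151), and 52 and 56.1 CPM in WT. Both genes had the same order, with Dicer highest, Ago between and WT lowest, and neither passed the threshold between Dicer and Ago. Epcam, a surface adhesion protein of epithelia and stem cells, had 1825 and 1039 CPM in the Dicer libraries, against 878 and 458 CPM in the Ago libraries (adjusted p = 0.351).

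Annexins, calcium-dependent proteins that bind membrane phospholipids, gave 3 calls. Anxa3 (chromosome 5 from 96793339 to 96845966) had 39.1 and 49.6 CPM in the Dicer libraries, against 2.55 and 3.67 CPM in the Ago libraries, and 12.0 and 17.8 CPM in WT (log2 fold change 3.81, SE 0.41, adjusted p = 0.00224). Here WT lay between, with Dicer above it and Ago below. Anxa2, which links membranes to actin, had 414 and 257 CPM in the Dicer libraries, against 64.3 and 69.3 CPM in the Ago libraries, and 114 and 152 CPM in WT (log2 fold change 2.33, SE 0.32, adjusted p = 0.0116), again with WT in the middle. Anxa1 had 123 and 121 CPM in the Dicer libraries, against 17.3 and 12.1 CPM in the Ago libraries, and 1.94 and 2.03 CPM in WT (log2 fold change 3.06, SE 0.52, adjusted p = 0.0309), so that WT was lowest. Among 16 annexin and galectin genes tested, which include the annexin partner S100a10, 3 were called higher and 0 lower, and the median log2 was 0.46. Over all genes 0.328% were called higher. At an unadjusted p under 0.05, 8 of the 16 (50%) were higher, where 6.27% of all genes were. The galectin Lgals9 had 275 and 246 CPM in the Dicer libraries, against 40.4 and 23.5 CPM in the Ago libraries (adjusted p = 0.0749), and 9.59 and 15.6 CPM in WT. Lgals3, another galectin, had 216 and 196 CPM in the Dicer libraries, against 70.5 and 61.1 CPM in the Ago libraries (adjusted p = 0.0865). Anxa2 and Anxa1 were not called without the first Dicer library (adjusted p = 0.18 and 0.24) or the second Ago library (0.087 and 0.22). Anxa1 was also lost without the second Dicer library (0.12) and without the first Ago library (0.050).

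Other genes with a large excess in the Dicer libraries include proteins of actin and adhesion. Parva (chromosome 7 from 112427505 to 112591692), which couples integrin-linked kinase to actin, had 84.4 and 80.5 CPM in the Dicer libraries, against 7.43 and 7.20 CPM in the Ago libraries, and 10.8 and 12.1 CPM in WT (log2 fold change 3.50, SE 0.35, adjusted p = 0.00224). Its replicates were close within each genotype, and it was called under every alternative. Gsn, gelsolin, which severs actin filaments, had 154 and 89.9 CPM in the Dicer libraries, against 16.5 and 12.3 CPM in the Ago libraries, and 36.0 and 58.0 CPM in WT (log2 fold change 3.09, SE 0.40, adjusted p = 0.00989). Adgrg6, an adhesion G protein-coupled receptor, had 52.4 and 27.0 CPM in the Dicer libraries, against 6.44 and 2.70 CPM in the Ago libraries, and 17.3 and 18.8 CPM in WT (log2 fold change 3.16, SE 0.53, adjusted p = 0.0309). For both genes WT lay between the knockouts. Erap1 (chromosome 13 from 74639568 to 74693201), the endoplasmic reticulum aminopeptidase that trims peptides for MHC class I, had 176 and 85.5 CPM in the Dicer libraries, against 11.04 and 10.1 CPM in the Ago libraries, and 6.73 and 4.40 CPM in WT (log2 fold change 3.64, SE 0.53, adjusted p = 0.0174). The Ago libraries lay slightly above WT and far below both Dicer libraries, and the Drosha libraries, at 23.2 and 6.55 CPM, were also below Dicer. Dock2, an activator of the GTPase Rac known from blood cells, had 97.5 and 51.3 CPM in the Dicer libraries, against 15.9 and 7.20 CPM in the Ago libraries, and 2.49 and 1.41 CPM in WT (log2 fold change 2.71, SE 0.49, adjusted p = 0.0402). Both knockouts lay above WT for this gene. Rnf128, a membrane E3 ubiquitin ligase, had 162 and 109 CPM in the Dicer libraries, against 32.4 and 8.47 CPM in the Ago libraries (log2 fold change 2.74, SE 0.53, adjusted p = 0.0486). Apobec2, a muscle member of the cytidine deaminase family, had 46.1 and 30.3 CPM in the Dicer libraries, against 6.93 and 4.92 CPM in the Ago libraries (log2 fold change 2.71, SE 0.46, adjusted p = 0.0309). Tmtc2, an O-mannosyltransferase of the endoplasmic reticulum, had 28.1 and 16.0 CPM in the Dicer libraries, against 3.61 and 2.43 CPM in the Ago libraries (log2 fold change 2.89, SE 0.54, adjusted p = 0.0448). In these 3 genes the Dicer libraries were several times above the Ago libraries without overlap. Among 30 actomyosin and focal adhesion genes, Parva was the 1 call, and the median was 0.06. At an unadjusted p under 0.05, 3 (10%) were higher and 1 (3.33%) lower, near the 6.27% and 5.98% of all genes. Without the first Dicer library, Gsn (adjusted p = 0.14), Erap1 (0.24), Adgrg6 (0.34), Dock2 (0.40), Rnf128 (0.34), Apobec2 (0.34) and Tmtc2 (0.51) were not called, and without the second Ago library the same 7 stood between 0.091 and 0.22. Without the second Dicer library Adgrg6, Dock2, Rnf128, Apobec2 and Tmtc2 stood between 0.053 and 0.12, and Tmtc2 was lost without the first Ago library too (0.050). With the Dicer and Ago libraries alone these 5 were not called either (0.0547 to 0.12).

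**Figure D3:**
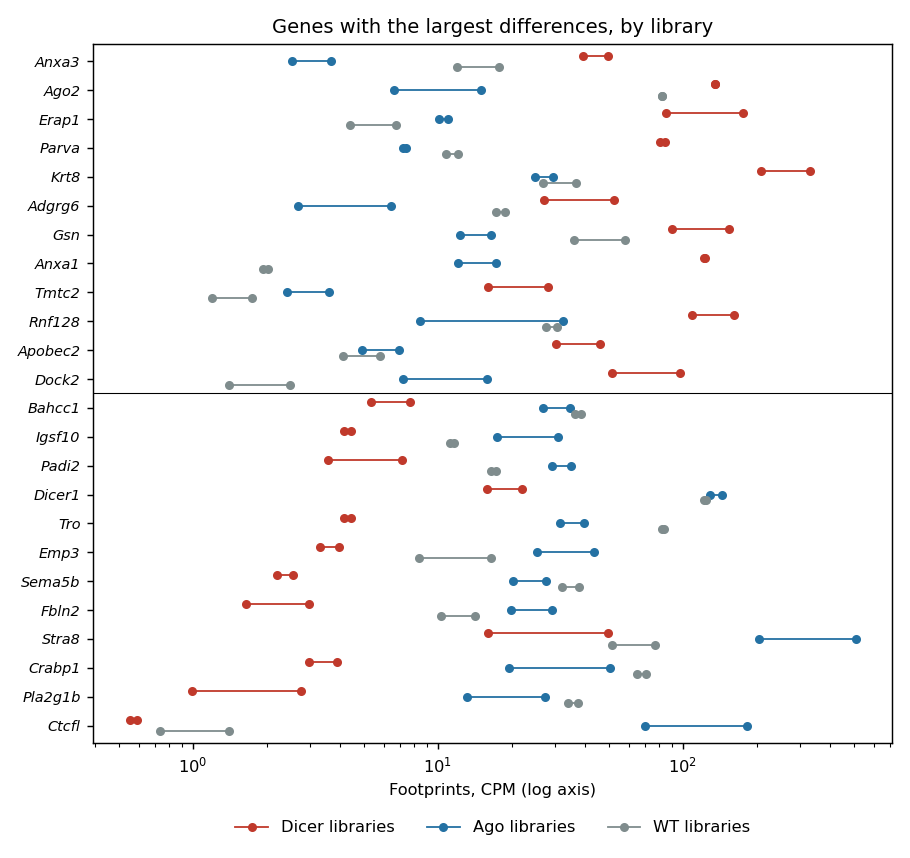
Footprints in CPM on a log axis for the 12 genes with the largest positive (above the line) and the 12 with the largest negative log2 fold change that passed the test at 20 CPM or more, 1 point per library, with the 2 libraries of a genotype joined, for Dicer (red), Ago (blue) and WT (grey). The red and blue points do not overlap in any of the 24 genes, and WT lies nearer the Ago libraries for most of them.

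The lowest gene in the Dicer libraries was one of the germ line. Ctcfl (ENSMUSG00000070495, chromosome 2 from 173093609 to 173119525), the testis paralogue of the insulator protein CTCF also known as BORIS, had 3 and 1 counts in the Dicer libraries, against 989 and 6165 counts in the Ago libraries. In levels it had 0.593 and 0.552 CPM in the Dicer libraries, against 70.0 and 183 CPM in the Ago libraries, and 0.738 and 1.41 CPM in WT (log2 fold change -7.75, SE 0.83, adjusted p = 0.00224). The fitted fold rests on those few Dicer counts. The Ago libraries were the high ones, and Dicer and WT were both near the limit of detection, with Drosha at 3.17 and 1.31 CPM. Without the first Dicer library its adjusted p was 0.14, and with limma-voom it was 0.0564. Stra8, induced by retinoic acid and needed to enter meiosis, had 49.4 and 16.0 CPM in the Dicer libraries, against 204 and 509 CPM in the Ago libraries, and 76.9 and 51.4 CPM in WT (log2 fold change -3.40, SE 0.66, adjusted p = 0.0499). Stag3, a cohesin subunit of meiosis, had 33.0 and 30.9 CPM in the Dicer libraries, against 95.9 and 139 CPM in the Ago libraries, and 80.8 and 136 CPM in WT (log2 fold change -1.87, SE 0.36, adjusted p = 0.0448). Stra8 was highest in the Ago libraries, whereas Stag3 had the same level in Ago and WT and was low in Dicer. In the germline list, which does not hold Stra8, 0 of 19 genes tested were called higher and 2 lower, where 0.219% of all genes were called lower. At an unadjusted p under 0.05, 1 (5.26%) was higher and 7 (36.8%) lower, against 6.27% and 5.98% of all genes. The median of the list was -1.04, and -0.35 without the second Ago library. Piwil2, which binds piRNAs, had 40.3 and 40.8 CPM in the Dicer libraries, against 67.3 and 99.5 CPM in the Ago libraries (adjusted p = 0.152). Against the direction of the list, Rhox5, an X-linked homeobox gene of the reproductive tract, had 339 and 238 CPM in the Dicer libraries, against 83.5 and 82.8 CPM in the Ago libraries (adjusted p = 0.168). Stra8 and Stag3 lost their calls without the first Dicer library (adjusted p = 0.24 and 0.36), the second (0.27 and 0.26) or the second Ago library (0.23 and 0.22). Both also missed the threshold with limma-voom (0.0504 each) and with the Dicer and Ago libraries alone (0.0887 and 0.0806).

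Several genes of extracellular matrix and guidance were also lower in the Dicer libraries. Fbln2, the matrix protein fibulin-2, had 2.97 and 1.66 CPM in the Dicer libraries, against 29.3 and 19.9 CPM in the Ago libraries, and 14.1 and 10.2 CPM in WT (log2 fold change -3.30, SE 0.52, adjusted p = 0.0254). Col6a2, a collagen VI chain, had 0.989 and 1.10 CPM in the Dicer libraries, against 8.77 and 17.5 CPM in the Ago libraries (log2 fold change -3.67, SE 0.65, adjusted p = 0.0376). Both were near the limit of detection in the Dicer libraries and did not overlap with Ago. These were the 2 calls, both lower, among 10 mesenchymal and fibroblast genes tested, with a median of -0.56. Over all genes 0.219% were called lower. Zeb1, a transcription factor that represses epithelial genes, had 2.57 and 2.76 CPM in the Dicer libraries, against 9.27 and 19.2 CPM in the Ago libraries (log2 -2.43, adjusted p = 0.131). Of 6 markers of fibroblasts or feeder cells, the 1 tested was Thy1, with 53.8 and 23.2 CPM in the Dicer libraries, against 52.99 and 19.3 CPM in the Ago libraries, so the groups overlapped. Sema5b, a semaphorin, had 2.57 and 2.21 CPM in the Dicer libraries, against 27.5 and 20.3 CPM in the Ago libraries, and 32.2 and 37.5 CPM in WT (log2 fold change -3.29, SE 0.45, adjusted p = 0.0116). Crabp1, which binds retinoic acid in the cytoplasm, had 2.97 and 3.86 CPM in the Dicer libraries, against 19.5 and 50.6 CPM in the Ago libraries, and 65.3 and 71.0 CPM in WT (log2 fold change -3.42, SE 0.63, adjusted p = 0.0433). Pla2g1b, a secreted phospholipase A2, had 0.989 and 2.76 CPM in the Dicer libraries, against 27.2 and 13.2 CPM in the Ago libraries, and 37.3 and 34.0 CPM in WT (log2 fold change -3.67, SE 0.67, adjusted p = 0.0411). For these 3 genes the Dicer libraries were low, and WT was above the mean of the Ago libraries. The 5 other named genes lower in Dicer were Emp3 (log2 -3.21), Tro (log2 -3.06), Padi2 (log2 -2.68), Igsf10 (log2 -2.51) and Bahcc1 (log2 -2.28). Padi2 citrullinates proteins, Emp3 and Tro encode membrane proteins, Igsf10 is of the immunoglobulin superfamily and Bahcc1 holds a BAH domain. Without the first Dicer library the adjusted p of these 10 called genes was between 0.24 and 0.43, and without the second Ago library between 0.054 and 0.21. Without the second Dicer library Padi2 stayed called (0.0498) and the other 9 stood between 0.097 and 0.19, and Pla2g1b was lost without the first Ago library (0.055). With limma-voom all but Padi2 lost their call (0.0504 to 0.246). With the Dicer and Ago libraries alone Sema5b, Emp3 and Tro stayed called and the other 7 did not (0.0564 to 0.0992).

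Kit and Ncam1, chosen after their values were seen, were also lower in the Dicer libraries. Kit, the receptor of stem cell factor, had 287 and 203 CPM in the Dicer libraries, against 827 and 1009 CPM in the Ago libraries, and 589 and 577 CPM in WT (log2 fold change -1.90, SE 0.30, adjusted p = 0.0254). Ncam1, a neural adhesion molecule, had 87.8 and 71.2 CPM in the Dicer libraries, against 367 and 377 CPM in the Ago libraries, and 163 and 82.2 CPM in WT (log2 fold change -2.22, SE 0.43, adjusted p = 0.0486). The Ago libraries were above WT in both genes, and the Dicer libraries were below WT in Kit and within its range or below in Ncam1. Without the first Dicer library the adjusted p was 0.24 for Kit and 0.36 for Ncam1, without the second 0.19 and 0.28, without the second Ago library 0.11 and 0.20, and without the first Ago library 0.055 for Ncam1. With the Dicer and Ago libraries alone it was 0.0806 for Kit.

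Histone genes that are expressed with DNA replication lay lower in the Dicer libraries. Hist1h1b, the linker histone H1.5, had 277 and 264 CPM in the Dicer libraries, against 627 and 1346 CPM in the Ago libraries, and 998 and 1013 CPM in WT (log2 fold change -1.87, SE 0.35, adjusted p = 0.0434). The second Ago library was the higher one, and Ago and WT overlapped while both Dicer libraries lay below all 4. It was the 1 call among 19 genes of the histone list tested, which also holds the variants H2afx, H2afz, H3f3a and H3f3b. Of these 19, 0 were higher and 16 lower at an unadjusted p under 0.05, where 5.98% of all genes were lower, and the median was -1.31. The median was -0.73 without the second Ago library and stayed below 0 in every alternative fit. Hist1h4i, a core histone H4 gene, had 26.7 and 25.4 CPM in the Dicer libraries, against 60.9 and 82.0 CPM in the Ago libraries (adjusted p = 0.0542). Hist1h1t, the linker histone of testis, had 1.38 and 1.10 CPM in the Dicer libraries, against 9.27 and 16.8 CPM in the Ago libraries (adjusted p = 0.0542), and 25.3 and 28.2 CPM in WT. Neither passed, and in both the Dicer libraries lay below the Ago libraries. Hist1h2bh, a core histone H2B gene outside the list and chosen after its values were seen, was called as well. It had 13.1 and 13.2 CPM in the Dicer libraries, against 32.9 and 74.5 CPM in the Ago libraries, and 56.0 and 52.1 CPM in WT (log2 fold change -2.03, SE 0.39, adjusted p = 0.0448), so Dicer was below Ago and WT. Histone genes are near-identical copies, so how reads were shared among them is uncertain. Hist1h1b was not called without the first Dicer library (adjusted p = 0.36), the second (0.25) or the second Ago library (0.21), and Hist1h2bh was lost in the same 3 fits (0.398, 0.228 and 0.215). Both were lost with the Dicer and Ago libraries alone (0.135 each), and Hist1h2bh with limma-voom (0.137).

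Antiviral genes were tested because Dicer also cuts double-stranded RNA. Of 19 genes of double-stranded RNA sensing and the interferon response, 0 were called in edgeR in either direction, 6 (31.6%) were higher and 0 lower at an unadjusted p under 0.05, where 6.27% of all genes were higher, and the median was 0.58. In 11 (57.9%) both Dicer libraries were above both Ago libraries, where 21.6% of all genes were. Oasl2, an oligoadenylate synthetase-like protein, had 31.8 and 18.8 CPM in the Dicer libraries, against 1.27 and 1.66 CPM in the Ago libraries (log2 4.10, adjusted p = 0.098), and 0.553 and 0.166 CPM in WT. Parp14, an interferon-induced ADP-ribosyltransferase, had 140.2 and 62.3 CPM in the Dicer libraries, against 36.5 and 22.4 CPM in the Ago libraries (adjusted p = 0.0749), and 8.67 and 8.05 CPM in WT. Dtx3l, the ubiquitin ligase that pairs with Parp9, had 55.2 and 44.7 CPM in the Dicer libraries, against 10.5 and 15.5 CPM in the Ago libraries (adjusted p = 0.0973), and 7.47 and 10.5 CPM in WT. In Oasl2 and Parp14 the order was Dicer, Ago, WT from high to low, without overlap, whereas for Dtx3l the first Ago library was level with WT. The Drosha libraries were also above WT in Oasl2, at 12.1 and 6.99 CPM, and in Parp14, at 44.8 and 31.9 CPM. For Dtx3l they had 32.2 and 10.5 CPM, the second level with WT. The part of double-stranded RNA cutting in these values was not tested.

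**Figure D4:**
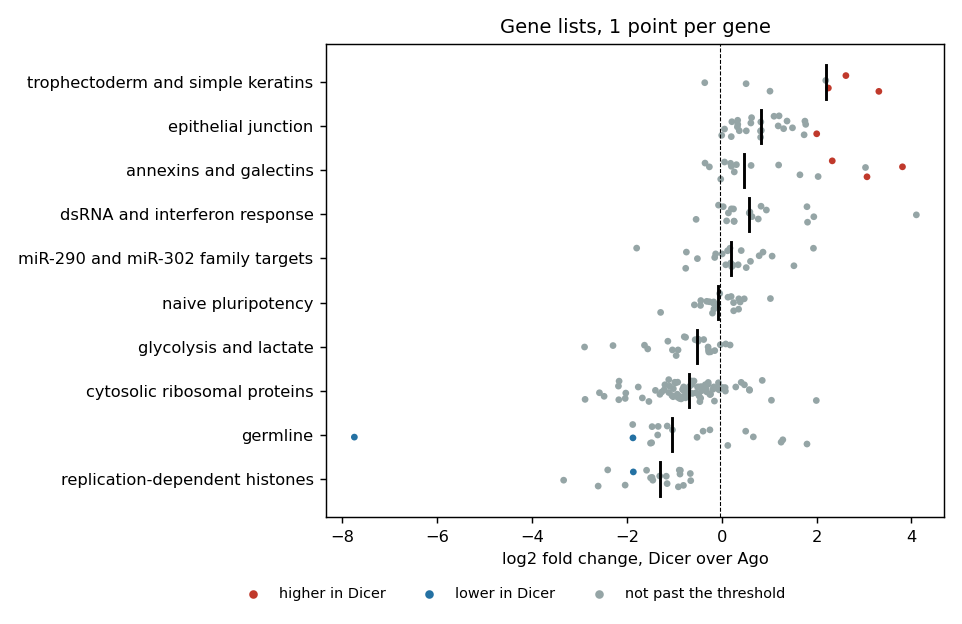
The log2 fold change of Dicer over Ago for every tested gene of 10 lists, 1 point per gene, with a black bar at the list's median and a dashed line at the median of all genes. Keratins (median 2.19) and epithelial junction genes (0.82) lie to the right, and germline genes (-1.04) and replication-dependent histones (-1.31) to the left.

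Genes of pluripotency and sugar use gave no calls between the genotypes. With 0.547% of all genes called, a list of 22 genes would mostly give none. Of 22 naive pluripotency genes 0 were called in edgeR, and the median was -0.09. At an unadjusted p under 0.05, 1 was higher and 1 lower (4.55% each), near the 6.27% and 5.98% of all genes. Summed over 8 stem cell markers, the level was 5851 and 4832 CPM in the Dicer libraries, against 4984 and 4528 CPM in the Ago libraries, so the ranges overlapped. The sum leaned on Dppa5a, with 2631 and 1516 CPM in the Dicer libraries, against 1479 and 559 CPM in the Ago libraries (adjusted p = 0.371). Zfp42 went the other way, with 635 and 659 CPM in the Dicer libraries, against 808 and 949 CPM in the Ago libraries (adjusted p = 0.577). So did Esrrb, and in the remaining markers the groups overlapped. Esrrb had 360.1 and 345 CPM in the Dicer libraries, against 434 and 529 CPM in the Ago libraries (adjusted p = 0.559), and Klf4 had 17.4 and 22.1 CPM in the Dicer libraries, against 60.4 and 35.1 CPM in the Ago libraries (adjusted p = 0.135). Both are transcription factors of naive pluripotency, and neither passed. Markers of primitive and visceral endoderm summed to 557 and 416 CPM in the Dicer libraries, against 658 and 354 CPM in the Ago libraries, and 2977 and 2712 CPM in WT. Most of this was Lrp2, the endocytic receptor megalin, which had 534 and 396 CPM in the Dicer libraries, against 633 and 342 CPM in the Ago libraries, and 1510 and 1204 CPM in WT. The other 7 markers summed to 22.3 and 19.9 CPM in the Dicer libraries, against 24.4 and 12.6 CPM in the Ago libraries, and 1467 and 1509 CPM in WT. Both knockouts were thus far below WT in these 7, and overlapped each other. Gata6, which starts this lineage, had 0 counts in the Dicer libraries and 14 in the deeper Ago libraries together, and 17.5 and 46.6 CPM in WT. From counting error its ratio of Dicer to Ago ran from 0 to 2.10, so these counts do not separate the 2 knockouts. Glycolysis and lactate genes gave 0 calls among 22 in edgeR, with a median of -0.53. At an unadjusted p under 0.05, 0 were higher and 8 (36.4%) lower, against 6.27% and 5.98% of all genes. Slc16a3, the lactate exporter, had 122 and 94.3 CPM in the Dicer libraries, against 308 and 332 CPM in the Ago libraries (adjusted p = 0.0563), and 569 and 481 CPM in WT. The glucose transporter Slc2a3 had 2045 and 1571 CPM in the Dicer libraries, against 3852 and 3590 CPM in the Ago libraries (adjusted p = 0.168), and 6979 and 5054 CPM in WT. For both, Dicer was lowest and WT highest.

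Cytosolic ribosomal protein genes had a median log2 of -0.68 over 74 genes, with 0 calls in edgeR. At an unadjusted p under 0.05, 0 were higher and 14 (18.9%) lower, against 6.27% and 5.98% of all genes. The median was -0.01 without the second Ago library and -1.13 without the first. Rpl34 had 6.72 and 9.38 CPM in the Dicer libraries, against 12.6 and 103 CPM in the Ago libraries, and Rpl31 had 25.3 and 36.4 CPM in the Dicer libraries, against 40.6 and 207 CPM in the Ago libraries (adjusted p = 0.131 and 0.196). In both, the second Ago library alone stood far above the rest. Ribosomal protein genes have many processed pseudogenes that share their reads.

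Imprinted genes, expressed from 1 parental copy, gave 0 calls among 16 in edgeR and a median of 0.09. At an unadjusted p under 0.05, 5 (31.2%) were higher and 0 lower, against 6.27% and 5.98% of all genes. Mest had 55.2 and 88.8 CPM in the Dicer libraries, against 8.77 and 0.474 CPM in the Ago libraries (log2 4.02, adjusted p = 0.0794), and 71.9 and 43.0 CPM in WT. Peg10, a gene derived from a retrotransposon, had 592 and 628 CPM in the Dicer libraries, against 231 and 81.2 CPM in the Ago libraries (adjusted p = 0.149), and 333 and 505 CPM in WT. In Mest and Peg10 the second Ago library was the lowest, and the Dicer libraries overlapped WT in Mest and lay above it in Peg10.

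Of 18 Hippo and Yap genes 0 were called in edgeR, with a median of 0.49. At an unadjusted p under 0.05, 5 (27.8%) were higher and 0 lower, against 6.27% and 5.98% of all genes. Amotl1, an angiomotin that holds Yap at junctions, had 46.9 and 48.5 CPM in the Dicer libraries, against 16.5 and 21.3 CPM in the Ago libraries (adjusted p = 0.0788). Its paralogue Amot had 11.5 and 13.2 CPM in the Dicer libraries, against 5.94 and 4.30 CPM in the Ago libraries, and 115 and 112 CPM in WT (adjusted p = 0.21), so both knockouts were far below WT.

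Both lesions act on repression by miRNAs, so genes with sites for the same miRNAs were compared. The miR-290 and miR-302 families share bases 2 to 8, the seed by which a miRNA finds its targets. Mature sequences from RefSeq (GRCm38.p6) are shown 5′ to 3′ with the seed in capitals, next to let-7, which stem cells hold low.
mmu-miR-294-3p: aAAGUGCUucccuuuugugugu
mmu-miR-295-3p: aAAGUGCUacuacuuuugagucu
mmu-miR-302b-3p: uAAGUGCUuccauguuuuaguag
mmu-miR-17-5p: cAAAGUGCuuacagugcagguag
mmu-let-7a-5p: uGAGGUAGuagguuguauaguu
The first of these, miR-294, is read from chr7:3220691-3220712 on the plus strand. The seed of miR-17 has 6 of these bases in common with that of miR-294, shifted by 1 position. Of 10967 tested genes with an annotated 3′ UTR (the longest of GENCODE M21), 1948 (17.8%) held AGCACTT, the complement of the miR-290 and miR-302 seed, on the mRNA strand. Their median log2 fold change of Dicer over Ago was 0.11, against -0.06 in the 9019 genes without it, and 0.18 in the 403 genes where an A follows the match. Of genes with the match 0.359% were called, and of genes without it 0.588%.

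The match went along with UTR length. The median log2 of Dicer over Ago was -0.19, -0.07, 0.02 and 0.10 from the shortest to the longest of 4 bins of 3′ UTR length that hold about equal numbers of genes. Within these bins, genes with the match exceeded genes without it by 0.07, 0.11, 0.08 and 0.07. For let-7 the same differences were 0.06, -0.04, -0.05 and 0.00, and over all lengths the medians were 0.01 with and -0.04 without its site CTACCTC. The excess was not particular to miR-290 and miR-302: for miR-17 the differences were 0.09, 0.15, 0.12 and 0.10, larger in each bin. In the bin of longest UTRs they were 0.16 for miR-92, 0.12 for miR-130, 0.12 for miR-21, 0.09 for miR-19 and -0.03 for miR-16. The other families had medians with a match of 0.13 for miR-17, 0.13 for miR-92, 0.10 for miR-19, 0.12 for miR-130, 0.13 for miR-21 and 0.03 for miR-16. Against WT, which both contrasts share, genes with the miR-290 and miR-302 match had medians of 0.22 for Dicer and 0.13 for Ago, and genes without it -0.04 and 0.02.

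**Figure D5:**
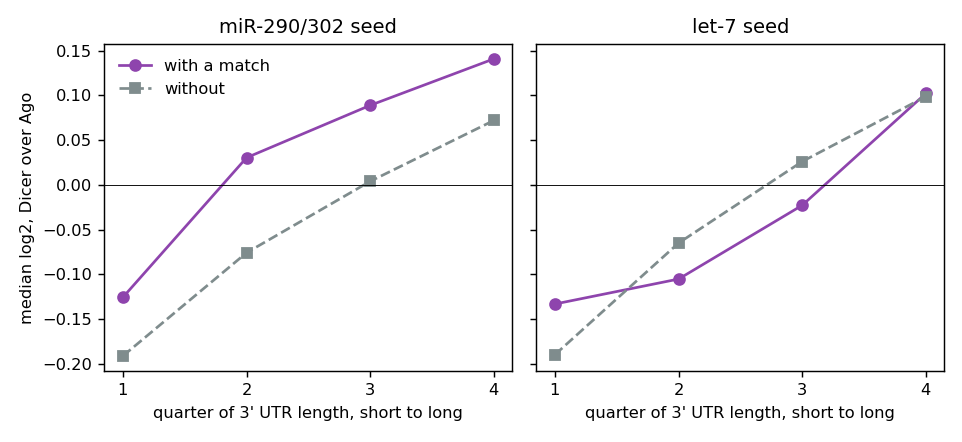
Median log2 fold change of Dicer over Ago in 4 bins of 3′ UTR length, for genes with (purple circles) and without (grey squares) a 7-base seed match of miR-290 and miR-302 (left) and let-7 (right). Medians climb with UTR length in both panels, and the lines for miR-290 and miR-302 are apart in each bin, by 0.07 to 0.11.

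All 7 called genes with the miR-290 and miR-302 match were among the 36 higher in Dicer, and 0 among the 24 lower. Over all genes 17.8% hold the match, close to the share of 7 in 36. The higher calls were thus not set apart by the match. Their sites are shown with 13 bases before and 4 after, 5′ to 3′ on the mRNA strand, with the match in capitals. The genes, all called higher in Dicer, lie on chromosomes 13 (Bhmt2, Erap1), 10 (Adgrg6), 1 (Arl4c), 11 (Dock2), 6 (Adamts9) and 4 (Ecpas). The match of Erap1 starts at base 907 of a 3′ UTR of 2475 bases, and that of Adgrg6 at base 38 of 2891.
Bhmt2: ttcatcttgttctAGCACTTtcta
Erap1: aataactcataatAGCACTTactg
Adgrg6: ggatcactcagacAGCACTTccac
Arl4c, first site: ctcagagccagccAGCACTTttgg
Arl4c, second site: tcacaatttcttaAGCACTTtgac
Dock2: attcctaagtgtcAGCACTTaaaa
Adamts9: acagaaatgccagAGCACTTggtg
Ecpas: ttaccaagttgttAGCACTTagtc
The levels of these genes in the Ago libraries stood on either side of WT. Bhmt2, a methyltransferase of methionine metabolism, had 11.1 and 7.72 CPM in the Dicer libraries, against 0.283 and 0.711 CPM in the Ago libraries, and 0.369 and 0.332 CPM in WT (log2 fold change 4.16, SE 0.76, adjusted p = 0.0411). Adamts9, a secreted metalloproteinase, had 67.0 and 48.5 CPM in the Dicer libraries, against 20.8 and 11.8 CPM in the Ago libraries, and 64.5 and 81.4 CPM in WT (log2 fold change 1.84, SE 0.35, adjusted p = 0.0448). In Bhmt2 Ago was near WT and Dicer above, whereas in Adamts9 Dicer was near WT and Ago below. Arl4c, a small GTPase, had 9.89 and 9.93 CPM in the Dicer libraries, against 1.56 and 0.889 CPM in the Ago libraries, and Ecpas, a proteasome adaptor, had 156 and 132 CPM in the Dicer libraries, against 46.3 and 56.5 CPM in the Ago libraries (log2 3.04 and 1.49). These 4 genes were chosen after their values were seen, and none was called with the Dicer and Ago libraries alone (adjusted p = 0.0806 to 0.109) or without the first Dicer library (0.35 to 0.40), the second (0.12 to 0.18) or the second Ago library (0.13 to 0.23). Bhmt2 and Ecpas were also lost without the first Ago library (0.059 and 0.063).

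Lists of known miRNA targets were read beside all genes tested, of which 0.547% were called. Among 22 genes listed as targets of miR-290 and miR-302, 0 were called in edgeR, and the median was 0.20. At an unadjusted p under 0.05, 2 (9.09%) were higher and 0 lower, against 6.27% and 5.98% of all genes. With so few genes, these counts do not set the list apart. Rbl2, a pocket protein that slows the cell cycle, had 28.9 and 29.8 CPM in the Dicer libraries, against 14.4 and 6.10 CPM in the Ago libraries (log2 1.52, adjusted p = 0.189), and 3.69 and 3.48 CPM in WT. The Ago libraries lay between Dicer and WT. Tgfbr2, a TGF-beta receptor, had 17.8 and 6.62 CPM in the Dicer libraries, against 4.10 and 2.55 CPM in the Ago libraries (adjusted p = 0.257), and 9.59 and 9.46 CPM in WT, so that the second Dicer library and both Ago libraries lay below WT. Among 18 listed let-7 targets the 1 call was Dicer1 itself, and the median was -0.14. At an unadjusted p under 0.05, 3 (16.7%) were lower and 0 higher, against 5.98% and 6.27% of all genes. Lin28a, which blocks let-7 maturation, had 2.77 and 16.6 CPM in the Dicer libraries, against 49.1 and 32.7 CPM in the Ago libraries (log2 -2.28, adjusted p = 0.162), and 71.7 and 98.1 CPM in WT. Igf2bp3, an RNA-binding protein of early development, had 42.7 and 23.2 CPM in the Dicer libraries, against 85.1 and 144 CPM in the Ago libraries (adjusted p = 0.32). Neither passed, although in both all Dicer values were below all Ago values.

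The place of WT between the genotypes is given as a description, since the 60 genes were chosen on the Dicer and Ago libraries. Of the 36 genes higher in Dicer, WT was nearer the Ago mean (log2 CPM) in 25 and nearer the Dicer mean in 11. Of the 24 lower genes it was nearer Ago in 19 and nearer Dicer in 5. The Drosha libraries, from cells lacking the nuclease that acts before Dicer, were nearer Dicer in 20 of the 36 higher genes and in 11 of the 24 lower genes. The libraries labelled Dgcr8 knockout were nearer Dicer in 7 of the 36 and 7 of the 24, and nearer Ago in 29 and 17. For Krt8 the log2 fold change from WT was 3.09 in Dicer and -0.22 in Ago, and for Ctcfl it was -0.95 in Dicer and 6.80 in Ago. For Anxa3 it was 1.56 in Dicer and -2.25 in Ago, on opposite sides of WT. For Anxa1 it was 5.94 in Dicer and 2.87 in Ago, the same way by different amounts.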

How the data were processed

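The data are ribosome footprints of 10 libraries as whole-number counts per gene, deposited by the authors in 1 table. Trimmomatic and Bowtie2, with mm10 (GRCm38), are named in the submitters' processing notes. The labels' protocols mention Drosophila spike-ins and 12 cycles of PCR. No spike-in was used here. No molecular identifiers are described, so PCR copies count as reads and the intervals given reflect counting alone. The step that assigned reads to genes is not given in the sources used here, nor whether strand was used, so overlapping and antisense genes cannot be told apart.

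Gene IDs (all 11011) were matched to GENCODE M21, and 16 symbols that had turned into dates were restored. Genes with few reads were removed with filterByExpr (33 genes). edgeR 4.0.16 (quasi-likelihood test, TMM scaling, 1 mean per genotype over all 10 libraries) tested Dicer against Ago, with Benjamini-Hochberg adjustment over 10978 genes at 0.05. DESeq2 1.42.0 and limma 3.58.1 were alternatives in R 4.3.3. Genes named were drawn from the 5 targeted genes, per direction the 12 called genes (no predicted genes) with the largest log2 fold change at 20 CPM or more in the higher genotype and without overlap, and up to 3 genes of smallest p from each of 47 lists. Other genes were named after their values were seen. Members and lists were chosen with earlier results of these data known. Of 21 miRNA sequences sought in RefSeq, 20 were found. Seed matches were counted on the longest 3′ UTR, with bases 2 to 8.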

Additional observations from a re-analysis of the deposited data

How the results depend on the processing

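All alternatives but 1 were planned, and every one of the 60 called genes kept its direction in each fit that tested it (52 genes at a mean of 10 CPM or more). The count of 60 calls, 36 higher and 24 lower in Dicer, was 377 (227 and 150) with DESeq2, 121 (111 and 10) with limma-voom, 28 (22 and 6) with the Dicer and Ago libraries alone, and 91 (57 and 34) without the libraries labelled Dgcr8. It stayed between 54 and 71 under both other scalings and both other filters. Of the 60, DESeq2 kept all, limma-voom kept 41 and lost 1 of the 36 higher and 18 of the 24 lower calls, and the 4 libraries alone kept 18. For Dicer against WT, limma-voom gave 1045 calls. Leaving out 1 of the 10 libraries gave 4 to 157 calls, 3 to 78 higher and 0 to 79 lower. The 0 lower calls arose in edgeR without the first Dicer library, where 737 genes had an unadjusted p under 0.05 in either direction. Dicer against WT gave 1874 calls with DESeq2 and 139 to 1503 with 1 library left out, in place of 1220. Ago against WT gave 932 with DESeq2, 942 with limma-voom, 491 without the libraries labelled Dgcr8 and 3 to 494 with 1 library left out, in place of 316.

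Replicate numbers were not taken as pairs, since each genotype has 2 libraries and the labels tie none together. Yet deviations of same-numbered libraries correlated positively in all 10 pairs of genotypes (r = 0.061 to 0.287, above 0.1 in 9), with r = 0.287 for Dicer and Ago, a hint from the data, not the design. As a block, the title numbers gave 212 calls (133 higher, 79 lower, all 60 kept), and 1877 and 738 for Dicer and Ago against WT. The numbers in the column names, which differ from the titles for Ago, gave 37 calls (9 higher, 28 lower, 20 of the 60 kept), and 2168 and 698. The cause of these shifts was not tested.

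The excess of genes with a miR-290 and miR-302 match, 0.17, was 0.24 with the 8-base match. For named genes without a call, direction turned for Dgcr8 (-0.033 with the block of column numbers, -0.10 without the second Dicer library, -0.09 without the second Ago library, and at most 0.14 with any library left out) and Creb5 (0.65 with that block, and 0.77 without the second Ago library to -2.54 without the first). The depth of the second Dicer library, 1754710 counts, limits genes under about 1.71 CPM.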

Other observations

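Part of the seed matches lie in a repeat. Of 2415 miR-290 and miR-302 matches in the 3′ UTRs of tested genes, 143 (5.92%) in 138 genes had the same 17 bases, aatcccAGCACTTggga, found for example in Dtx3l on chromosome 16, and the next most common window occurred 15 times. These letters are those of the B1 short interspersed repeat of the mouse genome. The 82 genes with no other match had a median log2 of Dicer over Ago of -0.06, against 0.12 in the 1866 genes with a match elsewhere and -0.06 in genes without one. Leaving those 82 genes out, an alternative chosen after the data were seen, put the excess at 0.18.

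Chromosomes 1 and 15 had medians away from 0 against WT. The median log2 fold change over 614 genes of chromosome 1 was -0.36 in Dicer and -0.44 in Ago against WT, and over 452 genes of chromosome 15 it was 0.33 and 0.48, with the WT libraries shared. Between Dicer and Ago the medians were 0.09 and -0.11, and on the other autosomes and X they lay between -0.14 and 0.10. Of the called genes 4 lie on chromosome 15, all higher in Dicer, among them the targeted gene Ago2 and the neighbours Krt8 and Krt18. This number was not particular to it: chromosomes 1, 4 and 10 held 4 higher calls each and chromosome 11 held 5.

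Cxcl16, a chemokine, named after its values were seen, had 3.56 and 4.41 CPM in the Dicer libraries, against 0 and 0.148 CPM in the Ago libraries (log2 fold change 5.26, SE 1.02, adjusted p = 0.0499). It had 18 and 8 counts in the Dicer libraries against 0 and 5 in the Ago libraries, and 4.61 and 6.14 CPM in WT. Its call held in 9 of 20 alternatives. It was lost with limma-voom (adjusted p = 0.0595) and with the Dicer and Ago libraries alone (0.108). Fgfr3 had 2 counts in the Dicer libraries together, against 174 in the Ago libraries, so that Ago exceeded Dicer 12.5 times (3.404 to 104 from counting error), and it was not called (adjusted p = 0.169). Osm, a cytokine of the LIF family, had 33.2 and 18.8 CPM in the Dicer libraries, against 11.8 and 3.20 CPM in the Ago libraries (adjusted p = 0.282), and 0 and 0.166 CPM in WT. The 2-cell-like markers tested summed to 23.1 and 16.0 CPM in the Dicer libraries, against 71.2 and 15.1 CPM in the Ago libraries.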
